A study of Mus musculus with 6 samples.

Results

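The genes described here act on the Wnt receptor at the cell surface. They are the co-receptors *Lrp5* and *Lrp6*, the alternative Wnt receptors *Ror1*, *Ror2* and *Ryk*, the R-spondin receptors *Lgr4* and *Lgr5*, the ubiquitin ligases *Rnf43* and *Znrf3*, and the Dickkopf receptor *Kremen1*. They were chosen by symbol, through the Ensembl identifiers of the count table, and all 10 were found among its 55414 genes. All 10 also passed edgeR's filter on low counts, as did 16353 genes of the whole table.

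Polyadenylated RNA was sequenced from *Pdx1-Cre* labelled cells sorted from the trunk of mouse embryos at E10.5, and the 6 libraries comprised 3 from WT embryos and 3 from embryos lacking *mir-302* (KO). Males and females heterozygous for the *mir-302* deletion were crossed, with *Pdx1-Cre* from one side and tdTomato from the other, so that embryos of both genotypes carried *Pdx1-Cre* and the tdTomato reporter. The deletion was inherited, so every cell of a KO embryo lacked the cluster, while *Pdx1-Cre* only marked the cells to be sorted. The sources used here do not say how many embryos went into a library or whether libraries came from separate litters, so p-values measure the spread between these libraries, which may be partly technical. In such sorted samples, fewer cells of a type and less RNA per cell cannot be told apart.

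In canonical Wnt signalling, a Wnt ligand binds a Frizzled protein and LRP5 or LRP6 together, and the resulting complex lets β-catenin enter the nucleus and switch on target genes. ROR1, ROR2 and RYK bind Wnt ligands such as WNT5A and signal largely without β-catenin. RNF43 and ZNRF3 remove Frizzled and LRP6 from the membrane, R-spondins bound to LGR4 or LGR5 take these ligases away, and KREMEN1 with a Dickkopf protein draws LRP6 into the cell. Wnt signalling in the foregut and its mesenchyme takes part in the specification and growth of the pancreas.

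The deleted cluster makes microRNAs that pair with messages through bases 2 to 8, the seed. Those of its mature 3p products that were found in RefSeq (GRCm38.p6, chromosome 3, plus strand) are shown because their seeds were searched in the Wnt receptor genes. The 3p product of miR-302a was not found there and is not shown. Capitals mark the seed, and among those shown miR-302b and miR-302d share theirs. They lie at chr3:127545275-127545297 (miR-302b), chr3:127545406-127545427 (miR-302c), chr3:127545665-127545687 (miR-302d) and chr3:127545779-127545800 (miR-367).
miR-302b-3p: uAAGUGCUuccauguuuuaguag
miR-302c-3p: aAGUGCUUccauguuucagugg
miR-302d-3p: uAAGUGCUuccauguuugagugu
miR-367-3p: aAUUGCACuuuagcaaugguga

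Matches to the seed shared by miR-302b and miR-302d were found in the 3′UTRs of 4 of the 10 genes, *Kremen1*, *Lgr4*, *Znrf3* and *Lgr5*. A match is here the complement of bases 2 to 8, or of bases 2 to 7 followed by an A in the message, in the 3′UTR of the GENCODE M21 annotation. In *Kremen1*, *Lgr4* and *Znrf3* the complement of bases 2 to 8 was followed by an A, the kind of site known to be repressed most strongly, whereas *Lgr5* had no such A. Any match was present in 20.6% of 13768 tested genes with a 3′UTR, and the strongest kind in 3.54%. The sites are printed with their surroundings and capitals for the match.
Kremen1: tgaccttcaagAGCACTTAgaagt
Lgr4: taatgactcaaAGCACTTAaattg
Znrf3: atttctcccatAGCACTTAatatt
Lgr5: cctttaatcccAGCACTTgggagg
The *Lgr5* site stands in letters known from the B1 interspersed repeat of rodents. The same 17 bases around the match (ttaatcccagcacttgg) were present at 148 of the 2476 sites of this kind in tested genes (5.98%). Longer 3′UTRs hold more matches by length alone. Among tested genes whose 3′UTR was within 10% of the length of that of *Kremen1* (3401 bases), 40.3% had a match to this seed. The share was 46.1% for *Lrp6* (4310 bases), 40.4% for *Znrf3* (3400 bases), 22.7% for *Lgr4* (1730 bases) and 12.1% for *Lrp5* (780 bases). For the strongest kind, the shares at like length were 7.73% for *Kremen1*, 7.71% for *Znrf3* and 2.80% for *Lgr4*.

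*Lrp6* and *Ror1* had no match to the seed of miR-302b and miR-302d, and each had 1 match to the seed of miR-302c. The seed of miR-302c is shifted by 1 base, and it was matched in *Lrp6*, *Ror1*, *Kremen1* and *Lgr4*, compared with 18.6% of tested genes. In *Lgr4* the sites of both seeds are the same stretch, read 1 base apart. The sites of *Lrp6* and *Ror1* are shown because these genes had the smallest p-values described below.
Lrp6: aggcgtttagaAAGCACTcctgat
Ror1: tcagatttactgAGCACTAaattt
The seed of miR-367 was matched in *Kremen1* alone among the 10 genes, and in 13.9% of tested genes. *Lrp5*, *Ror2*, *Ryk* and *Rnf43* had no match to any of the 3 seeds. Over all tested genes, those with a match to the seed of miR-302b and miR-302d had a median log2 fold change of -0.03 (KO over WT) and those without had -0.01. The matches are a description of letters in annotated 3′UTRs and were not tested as sites.

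The libraries held 17352498 to 26634523 counts, and levels are given in CPM, the counts scaled to library size with TMM factors. Where values of a genotype follow each other, they stand in the order of replicates 1, 2 and 3. The genes of the deleted cluster could not check the genotype labels, since *Mir302d* had 2 counts in KO replicate 3 and all other counts of the cluster genes were 0, below the floor of 3 counts. *Larp7*, within which the cluster lies, had a log2 fold change of -0.03 (edgeR adjusted p = 0.97). The summed level of 12 pancreatic progenitor markers was 1051 to 1330 CPM and that of 5 epithelial markers 3568 to 4115 CPM, and *Pdx1* was at 73.1 to 108 CPM. Markers of other cells varied between libraries of one genotype. The 12 mesenchyme markers summed to 509, 191 and 1073 CPM in WT replicates 1, 2 and 3 and to 1050, 47.5 and 1047 CPM in KO replicates 1, 2 and 3. In KO replicate 2, 8 of the 12 had 0 counts, *Col1a1* and *Col3a1* among them, while *Col1a2* was at 34.9 CPM and *Pdgfrb* at 11.3 CPM. The 7 blood markers summed to 13431 CPM in WT replicate 3, 5295 in KO replicate 1 and 285 in KO replicate 3, and to 0.741 to 2.03 in the others. The 6 liver markers summed to 597 to 1826 CPM, the 10 neural markers to 42.7 to 110 CPM and the 6 endothelial markers to 1.48 to 26.1 CPM. The library names of WT replicate 2 and KO replicate 1 begin with the same code and differ in their last letter, and the labels do not say what the code marks.

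By edgeR's quasi-likelihood test, none of the 10 genes passed an adjusted p of 0.05, and neither did any of the 16353 genes tested (0.0%). Of the 10 genes, 9 had a positive log2 fold change (KO over WT), compared with 7449 of the 16353 genes tested. The median of the 10 genes was 0.65, beside -0.02 over all genes tested. At an unadjusted p of 0.05, *Lrp6*, *Ror1*, *Lgr4* and *Kremen1* were higher in KO and none was lower, compared with 6.42% of all genes higher and 3.97% lower. DESeq2, run on the same counts, called *Lrp6*, *Ror1* and *Kremen1* higher and none lower at an adjusted p of 0.05, where it called 4.22% of 14353 genes higher and 0.648% lower. In the same 3 genes the lowest KO library exceeded the highest WT library, a pattern found in 8.36% of all tested genes, and no gene of the 10 had every KO library below, which 7.99% of all genes had. The plot of levels by library shows the 10 genes.

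**Figure D1:**
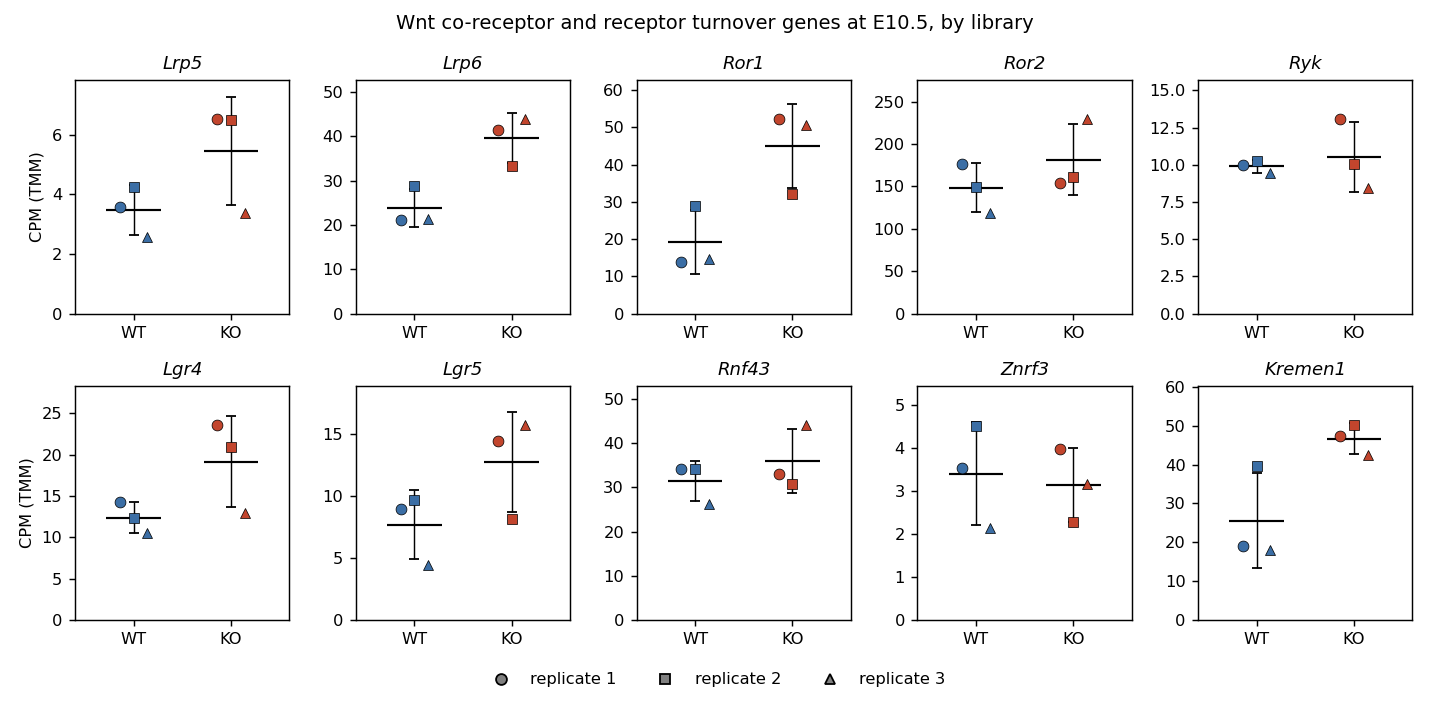
Level of each gene in each library, in CPM with TMM factors (y axes start at 0), for WT (blue) and KO (red); symbols mark the replicate number, the horizontal line the mean and the bar 1 SD over 3 libraries. The KO libraries stand above all WT libraries for *Lrp6*, *Ror1* and *Kremen1*, with WT replicate 2 nearest to them, and the genotypes overlap for the other 7 genes.

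*Lrp6* and *Lrp5* encode the single-pass co-receptors that Wnt ligands join to Frizzled proteins. For *Lrp6* (ENSMUSG00000030201.16), the WT libraries held 21.2, 28.9 and 21.4 CPM, and the KO libraries 41.5, 33.2 and 44.0 CPM. The genotypes did not overlap, and the closest libraries were replicate 2 of each. The mean level rested on 3 libraries each and was 23.8 ± 4.37 CPM (SD) without the deletion, compared with 39.6 ± 5.64 CPM in KO, and the fitted ratio was 1.66. Its log2 fold change was 0.73 ± 0.18 (SE; 95% interval 0.31 to 1.15; edgeR adjusted p = 0.168), and the DESeq2 adjusted p was 0.00385.

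*Lrp5* (ENSMUSG00000024913.17) had 3.58, 4.25 and 2.57 CPM in WT, compared with 6.52, 6.49 and 3.37 CPM in KO. KO replicate 3 fell among the WT libraries, and the other KO libraries lay above them. The log2 fold change was 0.66 ± 0.34 (95% interval -0.13 to 1.45; edgeR adjusted p = 0.578), nearly that of *Lrp6* with a wider interval. It rests on 556 reads over the 6 libraries, compared with 3913 for *Lrp6*.

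*Ror1* and *Ror2* encode receptor tyrosine kinase-like proteins that bind WNT5A, and *Ryk* a Wnt receptor with an inactive kinase domain. *Ror1* (ENSMUSG00000035305.6) had 13.9, 29.0 and 14.7 CPM in WT, and 52.3, 32.0 and 50.7 CPM in KO. As with *Lrp6*, WT replicate 2 and KO replicate 2 were neighbours and the other libraries stood far apart. *Ror1* had the largest log2 fold change of the 10 genes, 1.23 ± 0.33 (95% interval 0.46 to 2.01; edgeR adjusted p = 0.204), or a ratio of 2.35, with a DESeq2 adjusted p of 0.00169. Without WT replicate 2, the WT library nearest to KO, the log2 fold change was 1.67 and edgeR called the gene (adjusted p = 0.0426). With any other single library left out, the edgeR adjusted p was 0.194 to 0.538.

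*Ror2* (ENSMUSG00000021464.16) had 176.7, 149.8 and 119.2 CPM in WT, and 153.6, 161.6 and 229.9 CPM in KO. KO replicate 3 was the highest and WT replicate 3 the lowest, and the remaining 4 libraries were mixed. Its log2 fold change was 0.29 ± 0.19 (95% interval -0.17 to 0.75; edgeR adjusted p = 0.709). *Ryk* (ENSMUSG00000032547.13) had 9.99, 10.3 and 9.42 CPM in WT, and 13.1, 10.03 and 8.43 CPM in KO. It held the narrowest range in WT, with a coefficient of variation of 4.42%, and both the highest and the lowest library were KO. The log2 fold change of *Ryk* was 0.09 ± 0.20 (95% interval -0.39 to 0.57; edgeR adjusted p = 0.941), and it turned to -0.09 without KO replicate 1.

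*Lgr4* and *Lgr5* encode 7-transmembrane receptors for R-spondins, and *Lgr5* is also a β-catenin target and a marker of stem cells in several epithelia. *Lgr4* (ENSMUSG00000050199.14) had 14.3, 12.3 and 10.49 CPM in WT, and 23.6, 20.9 and 12.95 CPM in KO. KO replicates 1 and 2 were above the WT range and KO replicate 3 was within it. *Lgr4* had a log2 fold change of 0.63 ± 0.25 (95% interval 0.05 to 1.22; edgeR adjusted p = 0.425; DESeq2 adjusted p = 0.179).

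*Lgr5* (ENSMUSG00000020140.16) had 8.95, 9.66 and 4.47 CPM in WT, and 14.4, 8.15 and 15.7 CPM in KO. In contrast to *Lgr4*, KO replicates 1 and 3 were high and KO replicate 2 lay within the WT range, while WT replicate 3 was the lowest library. *Lgr5* had a log2 fold change of 0.73 ± 0.36 (95% interval -0.11 to 1.58; edgeR adjusted p = 0.559). The point estimates of *Lgr5* and *Lrp6* were the same, and the standard error of *Lgr5* was the larger.

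*Rnf43* and *Znrf3* encode the membrane ubiquitin ligases that lower the number of Frizzled receptors at the cell surface. *Rnf43* (ENSMUSG00000034177.16) had 34.1, 34.1 and 26.3 CPM in WT, and 33.0, 30.7 and 44.1 CPM in KO. *Znrf3* (ENSMUSG00000041961.15) had 3.53, 4.52 and 2.14 CPM in WT, and 3.99, 2.28 and 3.16 CPM in KO. Neither gene separated the genotypes, and the libraries were mixed in both. The log2 fold change of *Rnf43* was 0.19 ± 0.18 (95% interval -0.24 to 0.62; edgeR adjusted p = 0.832). That of *Znrf3* was -0.11 ± 0.36 (95% interval -0.95 to 0.73; edgeR adjusted p = 0.962), the only negative value of the 10 genes. *Znrf3* had the fewest reads, 405 over 6 libraries, and its sign turned without WT replicate 2 (0.17) or without KO replicate 2 (0.10).

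*Kremen1* (ENSMUSG00000020393.17) encodes a receptor for Dickkopf proteins. Its levels were 19.1, 39.7 and 17.9 CPM in WT, compared with 47.4, 50.2 and 42.4 CPM in KO. The KO libraries lay close together, with a coefficient of variation of 8.45%, whereas WT replicate 2 was far above the other WT libraries and just below KO replicate 3. Its fitted log2 fold change was 0.87 ± 0.31 (95% interval 0.15 to 1.59; edgeR adjusted p = 0.352; DESeq2 adjusted p = 0.041). Without WT replicate 2 it was 1.35 and edgeR called the gene (adjusted p = 0.0315). The same fit called 1.25% of 17000 genes higher in KO and called *Ror1* and *Kremen1* but not *Lrp6* (adjusted p = 0.0765). It left out the WT library nearest to KO for these genes, so their larger values followed from the choice. With any other single library left out, the edgeR adjusted p of *Kremen1* was 0.379 to 0.687.

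**Figure D2:**
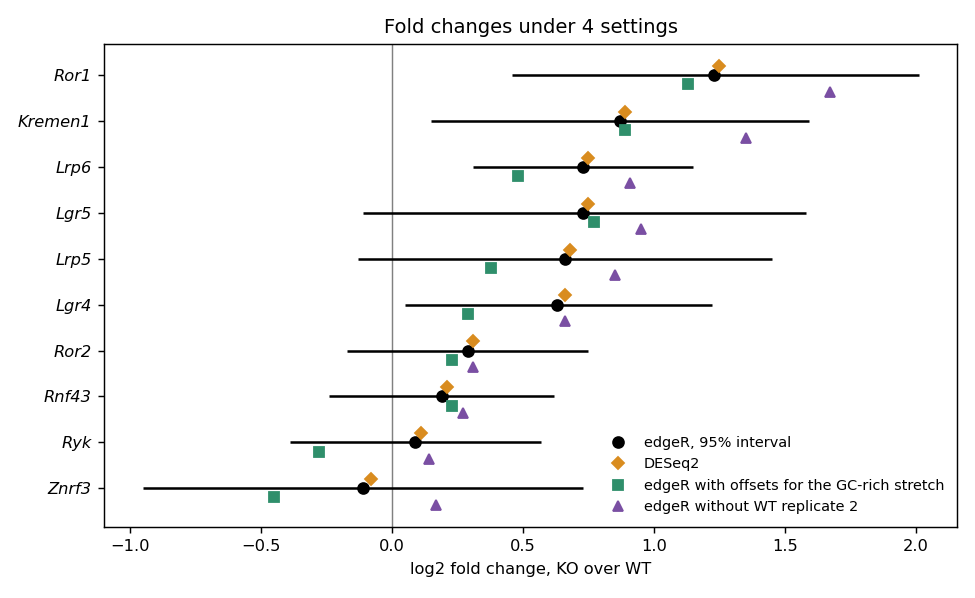
Log2 fold change of each gene (x axis, KO over WT), with black points and 95% intervals from edgeR, orange diamonds from DESeq2, green squares from edgeR with offsets for the most GC-rich stretch of the transcript, and purple triangles from edgeR without WT replicate 2. The intervals of *Ror1*, *Kremen1*, *Lrp6* and *Lgr4* lie above 0, and the offsets move *Lrp6* from 0.73 to 0.48 and *Lgr4* from 0.63 to 0.29.

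A stretch of 200 bases with at least 75% G and C was present in a protein-coding transcript of 7 of the 10 genes, compared with 26.3% of 13845 tested genes, and *Kremen1* (74.5%), *Lgr5* (69.5%) and *Rnf43* (66.5%) were below that share. Over all genes, those with such a stretch had a median log2 fold change of 0.13 and those without had -0.04. With offsets for the richest stretch of each gene, the log2 fold change was 0.48 for *Lrp6*, 0.38 for *Lrp5*, 0.29 for *Lgr4* and -0.28 for *Ryk*, while *Ror1* (1.13) and *Kremen1* (0.89) stayed near their values without offsets. *Znrf3*, with the most GC-rich stretch of the 10 genes (88.0%), went from -0.11 to -0.45. The median of the 10 genes was then 0.34.

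The summed mesenchyme markers were lowest in replicate 2 of each genotype. Single markers could differ, since in WT *Foxf1* was highest in replicate 2 and *Tbx18* lowest in replicate 1. For *Lrp6* and *Ror1*, replicate 2 was the highest WT library and the lowest KO library. *Kremen1* was highest in replicate 2 of both genotypes. What part the mesenchyme cells had in these values was not tested. Without replicate 2 of both genotypes, the log2 fold changes were 1.02 for *Lrp6*, 1.86 for *Ror1* and 1.29 for *Kremen1*, with edgeR adjusted p-values of 0.0603, 0.0527 and 0.0552. That fit was added after seeing the data. For *Lrp6* and *Ror1* it left out the libraries in which the genotypes were closest, so their larger values followed from the choice. For *Kremen1* it left out the WT library nearest to KO, together with the highest KO library. Without WT replicate 3 and KO replicate 1, the libraries with the most blood markers, *Lrp6*, *Ror1* and *Kremen1* had log2 fold changes of 0.65, 0.97 and 0.68. The median of the 10 genes was then 0.37. Between KO replicate 1 and WT replicate 2, whose names share only their first part, the log2 ratio was 0.85 for *Ror1*, 0.52 for *Lrp6*, 0.25 for *Kremen1* and 0.94 for *Lgr4*.

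The genes followed several patterns across the libraries. Pearson's r of log2 CPM was taken over all 6 libraries, WT and KO together, and is given as a description. The libraries differed in genotype and depth, so a difference between genotypes enters r too. *Lrp6* was most like *Ror1* among the other 9 genes (r = 0.99), and *Kremen1* was also most like *Ror1* (r = 0.91). *Lrp5* was most like *Lgr4* (r = 0.94), and both were low in KO replicate 3. *Ror2* was most like *Rnf43* (r = 0.94), and both were highest in KO replicate 3. *Lgr5* was also most like *Rnf43* (r = 0.86), *Ryk* was most like *Lgr4* (r = 0.71), and *Znrf3* was most like *Lgr5* (r = 0.64). Among all tested genes, the highest r with *Lrp6* were those of *Gm7895* (0.996), the alkaline phosphatase gene *Alpl* (0.995) and the laminin gene *Lamc1* (0.995).

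**Figure D3:**
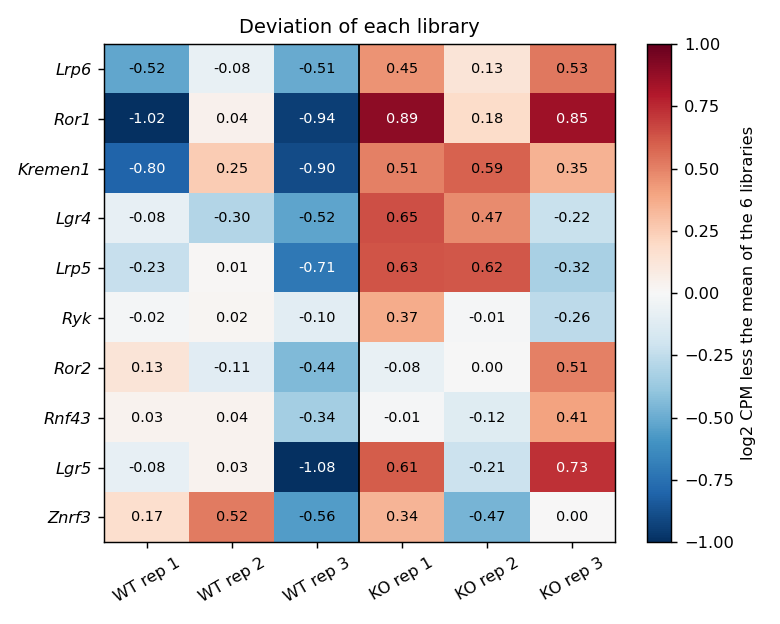
Log2 CPM of each gene in each library less the gene's mean over the 6 libraries (colour and number), with a line between WT and KO libraries. *Lrp6*, *Ror1* and *Kremen1* are negative in WT replicates 1 and 3 and positive in all KO libraries, *Lrp5* and *Lgr4* are negative in KO replicate 3, and *Lgr5* and *Znrf3* are negative in KO replicate 2.

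The genes covered a wide range of levels. Per kb of the longest annotated transcript, *Ror2* was the highest in WT at 37.3 ± 7.22 CPM per kb, followed by *Rnf43* (7.31 ± 1.04), *Kremen1* (5.27 ± 2.52), *Ryk* (3.47 ± 0.153), *Ror1* (3.33 ± 1.48), *Lrp6* (2.54 ± 0.467), *Lgr4* (2.44 ± 0.375), *Lgr5* (1.63 ± 0.598), *Lrp5* (0.672 ± 0.163) and *Znrf3* (0.539 ± 0.190; SD, n = 3 each). *Ror2* stood apart from *Rnf43*, *Kremen1* from *Ryk*, *Lgr4* from *Lgr5*, and *Lgr5* from *Lrp5*. The ranges of the other neighbours in this order overlapped. The highest mean was 69.2 times the lowest in WT and 91.6 times in KO. Over all 6 libraries, *Ror2* was at the 85.6th percentile and *Znrf3* at the 11.7th percentile of 16312 tested genes with a length.

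In KO, *Ror2* was again the highest at 45.6 ± 10.52 CPM per kb and *Znrf3* the lowest at 0.498 ± 0.135. *Kremen1* (9.61 ± 0.813) had the second highest mean, its range overlapping that of *Rnf43* (8.33 ± 1.67). *Ror1* (7.81 ± 1.95), *Lrp6* (4.22 ± 0.602) and *Lgr4* (3.78 ± 1.09) then stood before *Ryk* (3.69 ± 0.828), which had been above them in WT. *Lgr5* (2.71 ± 0.860) and *Lrp5* (1.06 ± 0.351) kept their places. Only *Ror2* with *Kremen1*, *Ror1* with *Lrp6*, *Lgr5* with *Lrp5* and *Lrp5* with *Znrf3* were neighbours whose ranges did not overlap.

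The order of levels between genes depended on the transcript length used. With the mean length of all annotated transcripts of a gene, *Lrp6* was at 8.05 CPM per kb in WT and 13.4 in KO, the third highest of the 10 genes in both, and already above *Ryk* (5.80) in WT. In KO, *Kremen1* (11.6) then stood below *Ror2*, *Rnf43* (16.0) and *Lrp6*. *Lrp5* (0.706) was then below *Znrf3* (0.832) in WT. *Ror2* was the highest with either length, at 55.4 CPM per kb in WT and 67.8 in KO with the mean length.

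**Figure D4:**
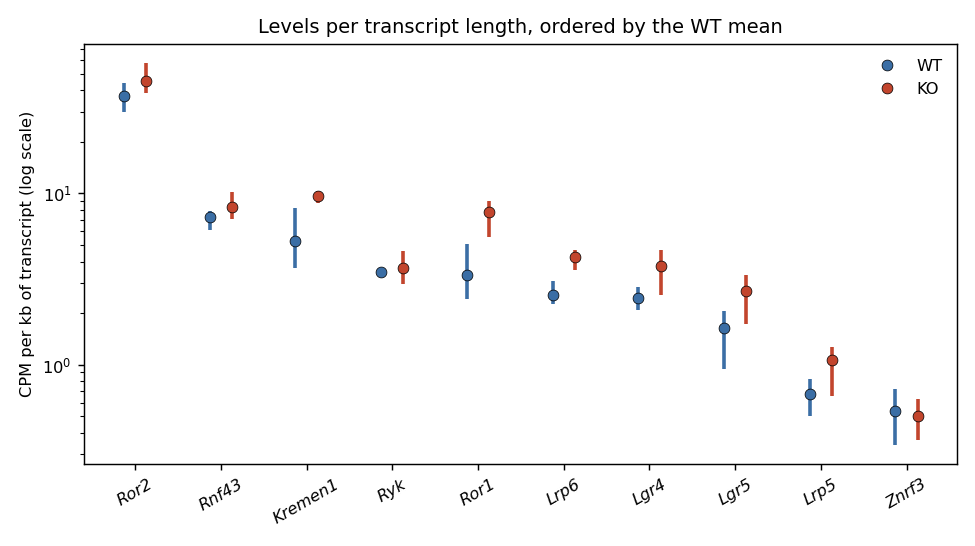
Level per kb of the longest annotated transcript (log axis, CPM per kb) of each gene in WT (blue) and KO (red), ordered by the WT mean, with points for means and lines from the lowest to the highest of 3 libraries. *Ror2* stands above all other genes in both genotypes, and *Lrp5* and *Znrf3* have the lowest means.

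Shares within related pairs, which need no scaling between libraries and use the longest transcript of each gene, were set against each other with an exact permutation test (two-sided). It cannot give a p under 0.1 with 3 libraries against 3. *Ror2* made up 94.9, 88.2 and 92.1% of the length-scaled counts of *Ror1* and *Ror2* in WT and 80.9, 87.9 and 86.8% in KO, where WT replicate 2 and KO replicate 2 nearly met. The mean was 91.7 ± 3.35% in WT and 85.2 ± 3.75% in KO (exact p = 0.1, the smallest possible; 0.4 after Benjamini-Hochberg adjustment over 4 pairs). *Ror2* therefore remained the main *Ror* transcript in all 6 libraries.

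*Lrp6* made up 79.2 ± 2.79% of *Lrp5* and *Lrp6* in WT and 79.8 ± 7.19% in KO (exact p = 0.9, adjusted 0.9). *Lgr4* made up 60.9 ± 7.26% of the R-spondin receptor pair in WT and 58.1 ± 13.7% in KO (exact p = 0.9, adjusted 0.9). In KO it ran from 43.4% in replicate 3 to 70.5% in replicate 2, so that *Lgr5* exceeded *Lgr4* per length in KO replicate 3. *Znrf3* made up 6.72 ± 1.53% of the ligase pair in WT and 5.71 ± 1.67% in KO (exact p = 0.5, adjusted 0.9). These 3 differences were within the spread between libraries.

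**Figure D5:**
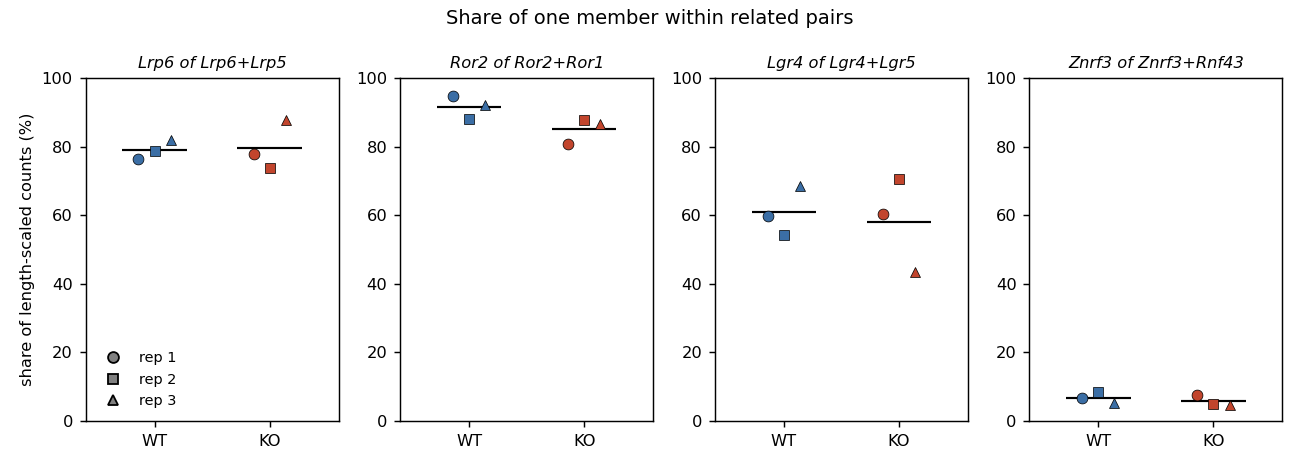
Share of 1 gene in the length-scaled counts of a related pair (y axis, percent, from 0 to 100) in each WT (blue) and KO (red) library, with symbols for the replicate number and lines for the means. The genotypes do not overlap for *Ror2* (80.9 to 87.9% in KO, 88.2 to 94.9% in WT) and overlap for the other 3 pairs.

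Partners of these genes at the membrane were counted from a list of 30, of which 25 were tested. Their median log2 fold change was 0.24, 6 were higher in KO at an unadjusted edgeR p of 0.05 and none was lower (6.42% and 3.97% over all genes), and DESeq2 called 4 higher (4.22% over all genes). It gave no adjusted p for 3 of the 25. The smallest p-values belonged to the casein kinase genes *Csnk1g3* and *Csnk1g2*, whose products phosphorylate LRP6, and to *Ccny*, the cyclin that directs LRP6 phosphorylation in mitosis. *Csnk1g3* was at 7.588, 11.95 and 8.06 CPM in WT and 49.5, 35.8 and 23.6 CPM in KO (log2 fold change 1.98 ± 0.31, edgeR adjusted p = 0.132, DESeq2 adjusted p = 1.55e-08). *Ccny* was at 11.1, 15.5 and 11.5 CPM in WT and 30.2, 25.7 and 25.8 CPM in KO (1.1 ± 0.18, edgeR adjusted p = 0.132). *Csnk1g2* had a log2 fold change of 1.87 ± 0.41 (edgeR adjusted p = 0.146). The genotypes did not overlap for these 3 genes, which were named for their small p-values. The related *Csnk1g1*, named after its value was seen, had a negative log2 fold change of -0.32 ± 0.20 (edgeR adjusted p = 0.680), and its genotypes overlapped. Among the 25 tested partners, 6 had every KO library above every WT library, compared with 8.36% of all tested genes.

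The ligands of the LGR receptors had low levels. *Rspo1*, *Rspo2*, *Rspo3* and *Rspo4* ranged from 0 to 4.81 CPM, and none was called, but DESeq2 gave no adjusted p for *Rspo2* and *Rspo3*. *Rspo2* and *Rspo3* had 0 counts in KO replicate 2, where mesenchyme markers were lowest. *Lgr6*, the third R-spondin receptor, was at 0.410 to 2.56 CPM (log2 fold change 0.64 ± 0.64, edgeR adjusted p = 0.839). *Dkk1*, which binds LRP6 and KREMEN1, was at 7.16, 1.34 and 4.66 CPM in WT and 5.67, 0.171 and 5.44 CPM in KO, lowest in the same libraries as the summed mesenchyme markers. *Kremen2* did not pass the filter, and its 125 counts in KO replicate 3 compare with 0 to 11 in the others. *Mesd*, the chaperone that LRP5 and LRP6 need to leave the endoplasmic reticulum, was at 164 to 209 CPM with a log2 fold change of -0.10 ± 0.09 (edgeR adjusted p = 0.837).

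Of 10 Frizzled genes 9 were tested, with a median log2 fold change of 0.39. At an unadjusted p of 0.05, 4 were higher and 1, *Fzd3*, was lower (6.42% and 3.97% over all genes), and DESeq2 called 2 higher (4.22% over all genes). For *Fzd9*, 1 of the 4 higher genes, DESeq2 gave no adjusted p. *Fzd9* passed the filter on low counts only through the KO libraries, so its place among the higher genes was partly set by the filter. *Fzd7* was at 18.0, 37.0 and 25.8 CPM in WT and 81.1, 60.7 and 75.2 CPM in KO (1.43 ± 0.26, edgeR adjusted p = 0.132, DESeq2 adjusted p = 2.06e-06). As for *Lrp6*, *Ror1* and *Kremen1*, replicate 2 was the highest WT library. *Fzd2* had a log2 fold change of 0.73 ± 0.15 (edgeR adjusted p = 0.140), *Fzd3*, named after its value was seen, one of -0.32 ± 0.08 (adjusted p = 0.175), and *Fzd9* was at 0.141 to 0.243 CPM in WT and 0.684 to 2.05 CPM in KO.

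Of 19 Wnt ligand genes 10 were tested, with a median of 0.62, and 1 was higher at an unadjusted p of 0.05 (6.42% over all genes) and called by DESeq2 (4.22% over all genes). This was *Wnt6*, at 0.566, 0.223 and 0.534 CPM in WT and 6.52, 0.342 and 8.54 CPM in KO, where KO replicate 2 lay in the WT range. *Wnt7b* (0.69 ± 0.29) and *Wnt5b* (0.74 ± 0.33) had edgeR adjusted p-values of 0.482 and 0.502. For 1 of the 10 ligand genes, DESeq2 gave no adjusted p. *Wnt5a*, the ligand of ROR1, ROR2 and RYK, was at 3.82, 8.04 and 6.26 CPM in WT and 9.28, 5.01 and 5.66 CPM in KO (0.14 ± 0.35, edgeR adjusted p = 0.947).

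Of 15 β-catenin target genes 14 were tested, with a median of 0.47, and 2 were higher and 1 was lower at an unadjusted p of 0.05 (6.42% and 3.97% over all genes). DESeq2 called none, but gave no adjusted p for 3 of them, the higher genes *Sp5* and *Notum* included. *Axin2*, the target most used to read out the pathway, was at 2.31, 1.06 and 1.80 CPM in WT and 1.603, 1.196 and 1.58 CPM in KO (-0.24 ± 0.38, edgeR adjusted p = 0.916), and the genotypes overlapped. *Sp5* was at 0.330, 0.279 and 0.243 CPM in WT and 1.19, 0.855 and 0.653 CPM in KO (1.65 ± 0.46, edgeR adjusted p = 0.217). *Notum*, a secreted enzyme that inactivates Wnt ligands, had 1, 3 and 3 counts in WT and 26, 22 and 15 counts in KO. *Sp5* and *Notum* passed the filter on low counts only through the KO libraries. Their place among the higher genes was thus partly set by the filter. *Ccnd1*, cyclin D1, was lower, with a log2 fold change of -0.57 ± 0.21 (edgeR adjusted p = 0.380), and its genotypes overlapped.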

How the data were processed

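Before deposit, the authors discarded low-quality sequence, ran STAR against GRCm39 and summed reads over genes with GenomicAlignments. The deposited values are whole-number counts, not normalized. Tool versions, the gene annotation and the handling of strand are not given in the sources used here. Libraries were made with SMART-seq v4 and Nextera XT. Counts held no molecular identifiers, so a floor of 3 counts covers counting error only. All 6 columns matched a library label, and 94% of identifiers matched a symbol in a table of Ensembl names.

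Genes passing filterByExpr were fitted in edgeR 4.0.16 (R 4.3.3) by the quasi-likelihood test at defaults, using TMM factors, with genotype as the only term and Benjamini-Hochberg adjustment over all tested genes (threshold 0.05). The fit had 4 residual and 3.26 prior degrees of freedom. DESeq2 1.42.0 was run as an alternative. Both fits were also run on simulated counts whose spread was capped, which cannot show which fit suits these libraries. Lengths, 3′UTRs and GC-rich stretches of 200 bases came from GENCODE M21 (GRCm38), so no gene coordinates are given. MicroRNA sequences came from RefSeq. Related pairs were compared with scipy 1.17.1.

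The 10 genes, the marker lists and the lists of other Wnt genes were chosen with earlier results of these data known. All 10 genes are named. Each Wnt list is represented by its 3 smallest p-values, with R-spondins, *Wnt5a*, *Axin2*, *Dkk1*, *Kremen2*, *Lgr6* and *Mesd* named whatever their values. *Fzd3*, *Csnk1g1*, *Gata4* and *Gata6* were named after their values were seen. Alternatives were DESeq2, other scaling, no filter, a replicate block, GC offsets, libraries left out and mean transcript length or raw counts for pairs. Another 2 alternatives, the newer spread estimate of edgeR and a fit without replicate 2 of both genotypes, were added after seeing the data. The study's small RNA data were not used here.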

Additional observations from a re-analysis of the deposited data

How the results depend on the processing

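Of 140 combinations of a gene and an alternative, 129 kept their direction and side of the threshold, 5 passed the threshold and 6 turned sign. Over all genes, edgeR called 0 with all libraries (1050 higher and 650 lower at an unadjusted p of 0.05), DESeq2 called 699 (606 higher, 93 lower), edgeR without a filter called 264 (241 higher, 23 lower), and leaving out 1 library gave 0 to 217, the latter without WT replicate 2. Of the 10 genes, DESeq2 called 3, and leaving out 1 library gave 0 to 2. Their median log2 fold change of 0.65 was 0.34 with offsets for the GC-rich stretch, 0.37 without WT replicate 3 and KO replicate 1, and 0.50 to 0.75 with 1 library left out. *Ryk* ran from -0.09 to 0.26 with 1 library left out and turned to -0.28 with GC offsets, -0.11 without WT replicate 3 and KO replicate 1, and -0.09 without KO replicate 1. *Znrf3*, -0.54 without WT replicate 3 and KO replicate 1 and -0.32 to 0.17 with 1 library left out, turned to 0.35 without replicate 2 of both genotypes, 0.17 without WT replicate 2 and 0.10 without KO replicate 2. The cause was not tested. The KO less WT share of *Lrp6* ran from -3.38 to 3.605 percentage points (0.608 with all libraries; -0.717 without WT replicate 1, -3.38 without KO replicate 3) and that of *Lgr4* from -8.98 to 4.57 (-2.77 with all; 1.102 without WT replicate 3, 4.57 without KO replicate 3). With mean instead of longest transcript length, *Lrp6* moved from 2.54 to 8.05 CPM per kb in WT and from 4.22 to 13.4 in KO. The planned older estimate of the spread is edgeR's default and so was not run separately. Replicate numbers did not pair the libraries (same-number correlations -0.211, 0.251 and 0.0779), and the replicate block called 0 of all genes and 0 of the 10 genes, with a median of 0.61. Low counts limit *Znrf3* and *Lrp5*.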
